A study of Mus musculus with 16 samples.

Results

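The UDP-glucuronosyltransferases (UGT), glutathione S-transferases (GST) and sulfotransferases (SULT) were examined in mouse liver RNA. They were taken by symbol (*Ugt*, *Gst* with the letters a, k, m, o, p, t or z, and *Sult*, each followed by a number). A gene was kept if it reached at least 1 CPM (counts scaled to a common library size) in 4 or more of the 16 libraries. Of 72 genes with such a symbol, 46 were kept, 18 UGT, 20 GST and 8 SULT genes, among 12985 genes of the whole table that passed the same filter. *Sult1e1*, *Sult2a7* and *Ugt1a2* passed it in fewer than 12 libraries, whereas the other 43 genes passed it in 12 or more.

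The livers came from male C57BL/6J mice that were 6 weeks old when the diets began. The 4 groups had 4 libraries each. Chow and HFD mice ate chow or a high-fat diet for 12 weeks and were injected with saline every 2 weeks. Chow/FGFR4 KD and HFD/FGFR4 KD mice ate the same diets and received instead an siRNA (3 mg/kg) that targets *Fgfr4*, whose product is the liver receptor for the intestinal hormone FGF15. The siRNA was conjugated to N-acetylgalactosamine, a sugar that hepatocytes take up, and the saline controls received no other siRNA, so the loss of FGFR4 and the injection of an siRNA as such cannot be told apart. *Fgfr4* was 29.9 ± 4.57 CPM (mean ± SD, n = 4) in Chow, 4.80 ± 1.60 CPM in Chow/FGFR4 KD, 25.5 ± 4.30 CPM in HFD and 3.72 ± 1.34 CPM in HFD/FGFR4 KD.

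Conjugation is the second step of drug and hormone clearance. UGT enzymes join glucuronic acid to bilirubin, steroids, bile acids and drugs, GST enzymes join glutathione to reactive compounds, and SULT enzymes move a sulfate group onto steroids, bile acids and phenols. The conjugates dissolve in water and are pumped into bile or blood. In mice several of these genes differ between male and female livers, and many are targets of the xenobiotic receptors CAR and PXR or of the oxidative stress factor NRF2.

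The promoters shown are those of the genes that the diet results turn on, with a relative that moved little beside them. They are the 250 bases before the RefSeq start (GRCm38.p6, minus strand, written 5′ to 3′), at chr19:4037913-4038162 for *Gstp1*, chr19:4042222-4042471 for *Gstp2*, chr5:87140341-87140590 for *Ugt2b5*, chr5:87424204-87424453 for *Ugt2b38* and chr5:87092556-87092805 for *Ugt2b36*. Capitals mark TGANTCAGC, the letters of an AP-1 and MAF type element, in the *Gstp* promoters and AGGTCA, the letters that many nuclear receptors bind, in the *Ugt2b* promoters.
Gstp1: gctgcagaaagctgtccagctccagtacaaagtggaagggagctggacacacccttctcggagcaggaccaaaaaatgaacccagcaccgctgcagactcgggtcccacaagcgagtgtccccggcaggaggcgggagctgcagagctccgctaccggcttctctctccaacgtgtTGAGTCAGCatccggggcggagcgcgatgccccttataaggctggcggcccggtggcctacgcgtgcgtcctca
Gstp2: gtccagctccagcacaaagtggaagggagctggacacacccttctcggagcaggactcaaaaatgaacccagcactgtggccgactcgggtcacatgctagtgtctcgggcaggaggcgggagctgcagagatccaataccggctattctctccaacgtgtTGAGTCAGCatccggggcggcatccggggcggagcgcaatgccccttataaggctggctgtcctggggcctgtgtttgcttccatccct
Ugt2b5: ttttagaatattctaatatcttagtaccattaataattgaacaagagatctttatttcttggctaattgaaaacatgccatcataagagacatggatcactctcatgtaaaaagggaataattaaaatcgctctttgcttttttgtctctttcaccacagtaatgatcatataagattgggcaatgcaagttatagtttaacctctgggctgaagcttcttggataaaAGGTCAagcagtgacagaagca
Ugt2b38: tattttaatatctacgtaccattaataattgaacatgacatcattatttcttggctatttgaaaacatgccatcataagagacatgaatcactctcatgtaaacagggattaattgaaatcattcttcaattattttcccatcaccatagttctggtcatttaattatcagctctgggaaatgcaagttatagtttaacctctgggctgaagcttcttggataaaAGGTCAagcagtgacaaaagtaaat
Ugt2b36: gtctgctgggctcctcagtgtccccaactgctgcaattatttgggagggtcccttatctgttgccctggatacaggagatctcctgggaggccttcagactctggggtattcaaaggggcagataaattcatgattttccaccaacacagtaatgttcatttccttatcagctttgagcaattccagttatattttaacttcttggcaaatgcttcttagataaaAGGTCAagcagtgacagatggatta

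The same letters stood at bases -74 to -66 before the start of *Gstp1* and at -89 to -81 of *Gstp2*, and the promoters of both genes, with the first 50 bases of the transcript, were 77.1% identical. TGANTCAGC, searched on both strands, was found in 1.2% of 32851 mouse promoters of 300 bases, and among the 41 conjugation genes with a promoter only in *Gstp1* and *Gstp2*. It was searched for after these sequences had been read, and with a C at the open position it overlaps the antioxidant response element core TGACNNNGC, which was in 12.4% of all promoters and in those of *Gsta3*, *Gstm5* and *Gstm7*. AGGTCA was at -22 to -17 in *Ugt2b5*, at -25 to -20 in *Ugt2b38* and *Ugt2b36*, and at -39 to -34 in *Ugt2b37*. It was in 12 of the 50 promoters of conjugation genes and in 16.3% of all promoters. *Ugt2b5* and *Ugt2b38* were 84.2% identical over the promoter window, *Ugt2b5* and *Ugt2b36* 62.2%. The xenobiotic response element core GCGTG was in 10 and the letters TTCNNNGAA of a STAT5 site in 3 of the 50 promoters, against 32.4% and 8.3% of all promoters. These matches are letters in a window and were not tested for binding.

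Total estimated counts ran from 3445949 to 5976448 per library, of which the 46 genes took 0.624% to 0.942%. HFD/FGFR4 KD 1 stood apart from its group, with a score of -6.89 on the first principal component (39.5% of the variance), where the other 3 libraries of the group scored 18.9 to 22.7 and the chow libraries -23.7 to -6.41. For the 46 genes, calls of HFD/FGFR4 KD that changed without it, and the larger shifts in value, are given beside the results. Chow/FGFR4 KD 4 had 2392 CPM of the acute-phase gene *Saa2*, against 8.68 to 119 CPM in the other 3 libraries of its group. Hepatocyte markers were high in every library, with a sum of 60110 to 81360 CPM over 9 genes.

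Levels of different genes were compared per kilobase of the median protein-coding transcript. *Gsta3*, an alpha class enzyme, had the highest mean over the 16 libraries at 1200 CPM per kb, followed by the mu class enzyme *Gstm1* at 1013, the pi class enzyme *Gstp1* at 762, the sulfotransferase *Sult2a8* at 662 and *Ugt2b36* at 503. In chow-fed saline mice *Gsta3* (1256 ± 230 CPM per kb), *Gstp1* (1210 ± 287) and *Gstm1* (1020 ± 129) were highest. The mean of *Gstp1* lay within 1 SD of that of *Gsta3*. On HFD *Gstp1* was 265 ± 15.8 CPM per kb, below *Ugt2b36* (506), *Sult2a8* (475) and *Gstz1* (412). The UGT genes ran from 0.528 CPM per kb for *Ugt1a2* to 503 for *Ugt2b36*, and the SULT genes from 0.409 for *Sult1e1* to 662 for *Sult2a8*. *Ugt2b5* had 302 CPM per kb and *Ugt1a1*, the bilirubin-conjugating enzyme, 209. The order depends on the transcript length used: with the longest transcript *Gstp1* came first at 748, and *Ugt2b5* (302) lay above *Sult2a8* (228) and *Ugt2b36* (218 CPM per kb). The order on HFD given above is that of the median transcript only. This was 818 bases for *Ugt2b36*, against 1888 for the longest, and 806 against 821 for *Gstp1*.

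**Figure D1:**
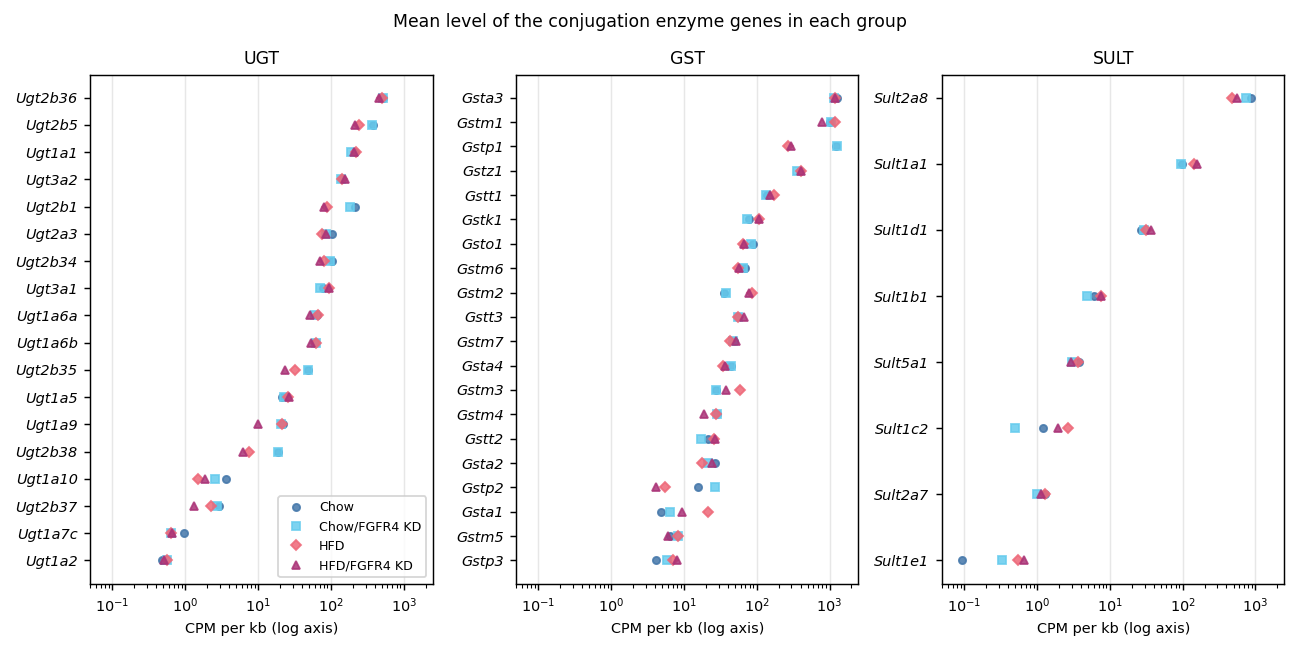
Mean level of each of the 46 genes in each group, in CPM per kilobase of the median protein-coding transcript on a log axis, in 3 panels for the UGT, GST and SULT genes (4 libraries per symbol). The symbols of a gene lie close together for most genes, and *Gstp1*, *Ugt2b1*, *Ugt2b38* and *Gstp2* show both HFD groups to the left of both chow groups.

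The effect of the diet was examined in saline mice (HFD minus Chow) and again in KD mice (HFD/FGFR4 KD minus Chow/FGFR4 KD), with no library in common. The main losses on HFD were in *Gstp1* and its neighbour *Gstp2* and in the *Ugt2b* genes, and the main gains were in *Gstm2*, *Sult1a1*, *Sult1c2* and *Gstk1*. A gene was called at p under 0.05 in limma-voom if its adjusted p (Benjamini-Hochberg, over 12985 genes) was also under 0.25, the threshold of the study. In saline mice 17 of the 46 genes (37.0%) were called, 7 higher and 10 lower, against 25.1% of all genes (12.2% higher and 12.9% lower). In KD mice 23 of the 46 were called, 8 higher and 15 lower, against 18.5% of all genes (8.73% higher and 9.72% lower). Of the calls, 11 and 9 had an adjusted p under 0.05. In saline mice the diet groups did not overlap for 3 of the 46 genes that were higher and 8 that were lower, against 15.5% of all genes. In KD mice this held for 5 higher and 8 lower, against 11.1% of all genes. The median log2 fold change of the 46 genes was -0.02 in saline and 0.01 in KD mice, and that of all genes 0.00 and -0.01. Of the genes called, 13 were shared, which was 76.5% of the calls in saline mice and 56.5% of those in KD mice, and all 13 moved in the same direction, 5 up and 8 down.

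The direction of smaller changes depended on the scaling of the libraries. With library totals in place of TMM factors the median of all genes moved to 0.30 in saline mice and 0.15 in KD mice, and the calls became 16 higher and 6 lower in saline mice and 10 higher and 8 lower in KD mice. Upper-quartile scaling gave 9 higher and 9 lower in KD mice. Of the genes called in both comparisons, *Gstk1*, *Gstm2*, *Gstp1*, *Gstp2*, *Sult1a1*, *Sult1c2*, *Ugt2b1*, *Ugt2b38* and *Ugt2b5* kept their calls in both under every scaling, filter and test tried and with any library left out, the stricter threshold aside. Without HFD/FGFR4 KD 1, 19 genes were called in KD mice. The calls lost were *Gsto1* (-0.25, adjusted p 0.363), *Ugt1a6b* (-0.17, adjusted p 0.339), *Ugt1a9* (-0.80, adjusted p 0.308), *Ugt2b36* (-0.16, adjusted p 0.264) and *Ugt3a2* (0.19, adjusted p 0.256), and the call gained was *Sult2a8*. The count was 14 without Chow/FGFR4 KD 1 and 15 without HFD/FGFR4 KD 4.

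**Figure D2:**
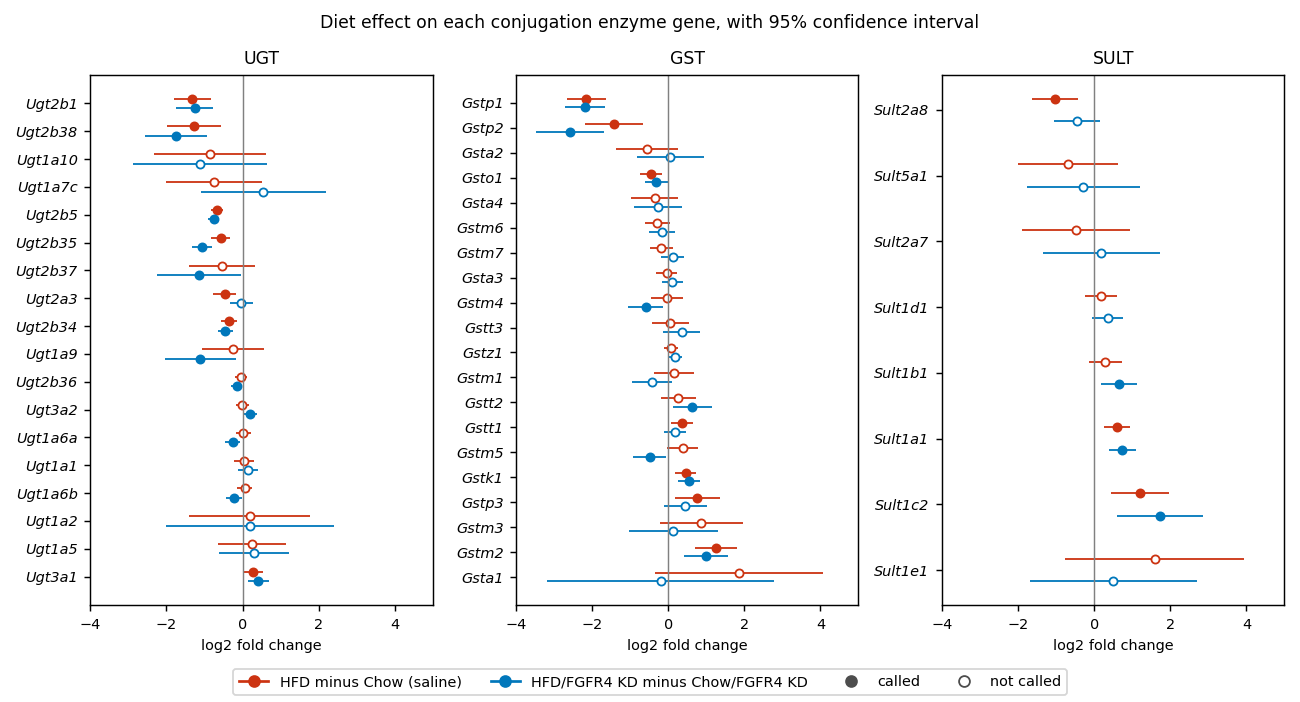
Log2 fold change of each gene on HFD in saline mice (HFD minus Chow, red) and in KD mice (HFD/FGFR4 KD minus Chow/FGFR4 KD, blue), in panels for UGT, GST and SULT genes. Lines are 95% confidence intervals from limma-voom and filled points are called. *Gstp1* lay near -2.2 in both, most *Ugt2b* genes lay below 0, and *Gstm2*, *Gstk1*, *Sult1a1* and *Sult1c2* lay above 0 in both.

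*Gstp1* (ENSMUSG00000060803; chromosome 19, 4035407 to 4037985, GRCm38), whose product conjugates electrophiles and which is known as a male-biased gene of mouse liver, fell in both comparisons. Its level was 1075, 1250.4, 738 and 839 CPM in Chow 1 to 4 and 782, 1231, 987 and 1109.9 CPM in Chow/FGFR4 KD 1 to 4. It was 199.6, 222, 206 and 227 CPM in HFD 1 to 4 and 437, 185, 171 and 172 CPM in HFD/FGFR4 KD 1 to 4. All 8 HFD libraries thus lay below all 8 chow libraries, with HFD/FGFR4 KD 1 closest to them. It fell by 2.16 on the log2 scale (SE 0.24, adjusted p 0.000141) in saline mice, to 213 ± 12.7 from 975 ± 231 CPM, and by 2.20 (SE 0.24, adjusted p 0.000258) in KD mice, where the log2 change was -2.52 without HFD/FGFR4 KD 1. Expressed as a ratio this is 4.48-fold and 4.58-fold lower.

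*Gstp2* (chromosome 19, 4040285 to 4046023) lies next to *Gstp1* and shares 60.3% of its 31-base words with transcripts of other genes, so that reads of the pair may be split between them. It was 4.84 to 10.2 CPM in Chow, 8.89 to 21.8 in Chow/FGFR4 KD, 2.05 to 2.94 in HFD and 1.21 to 3.06 in HFD/FGFR4 KD, again without overlap between the diets. It fell by 1.44 (SE 0.36, adjusted p 0.0213) and 2.58 (SE 0.43, adjusted p 0.0051) on the log2 scale. Summed, the pair changed by -2.16 in saline mice and -2.20 in KD mice, which are the values of *Gstp1*. Most of this sum was *Gstp1* (975 ± 231 CPM in Chow), so it cannot show whether *Gstp2* itself fell. *Gstp3*, a further gene of the cluster, moved the other way, from 2.89 ± 0.87 to 4.89 ± 0.561 CPM in saline mice (log2 0.76, SE 0.28, adjusted p 0.103), and was not called in KD mice (4.07 ± 1.55 and 5.55 ± 1.16 CPM).

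The 7 *Ugt2b* genes, which glucuronidate steroids and bile acids, lie within 534 kb of chromosome 5 (86889767 to 87424203). In saline mice 5 of them were called lower and in KD mice all 7, against 12.9% and 9.72% of all genes. The KD calls of *Ugt2b36* and *Ugt2b37* were not stable, as given below. The medians were -0.57 and -1.07. None of the 7 had a log2 fold change above 0 with TMM factors, whereas *Ugt2b36* turned above 0 with library totals in both. *Ugt2b5* (ENSMUSG00000054630; 87124960 to 87140318), the most abundant by CPM, was 750, 722, 718 and 666 CPM in Chow 1 to 4 and 457, 439.5, 430.3 and 469.5 CPM in HFD 1 to 4. In KD mice it was 652, 727, 674 and 673 CPM on chow and 452, 381, 398 and 379 CPM on HFD. The diets did not overlap, and the spread within a group was small. It fell by 0.67 on the log2 scale in saline mice (SE 0.07, adjusted p 0.00012) and by 0.76 in KD mice (SE 0.07, adjusted p 6.13e-05).

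*Ugt2b1* (86916638 to 86926530) was 629, 589, 469.8 and 550.5 CPM in Chow 1 to 4 and 182, 272, 173 and 289 CPM in HFD 1 to 4. In KD mice it was 401, 510.2, 527 and 425 CPM on chow and 354, 164, 169 and 142 CPM on HFD. The groups did not overlap in either comparison, although HFD/FGFR4 KD 1 was far above the other libraries of its group. The fall was 2.49-fold in saline mice (log2 -1.32, SE 0.23, adjusted p 0.00324) and 2.39-fold in KD mice (log2 -1.26, SE 0.23, adjusted p 0.0108, and -1.55 without HFD/FGFR4 KD 1).

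*Ugt2b38* (87409942 to 87424203), which shares 44.1% of its words with *Ugt2b5*, went from 35.5 ± 13.7 to 14.1 ± 4.11 CPM in saline mice and from 35.7 ± 7.67 to 11.7 ± 7.93 CPM in KD mice. The log2 fold changes were -1.28 (SE 0.34, adjusted p 0.029) and -1.76 (SE 0.39, adjusted p 0.0274, and -2.14 without HFD/FGFR4 KD 1). Chow 3, at 16.6 CPM, lay below HFD 4 at 19.04 CPM, so the saline groups overlapped. Counts summed over *Ugt2b5*, *Ugt2b37* and *Ugt2b38* gave -0.69 and -0.80, both called. Most of this sum was *Ugt2b5* (714 ± 35.0 CPM in Chow), so it cannot show whether *Ugt2b38* itself fell. *Ugt2b37*, at 0.851 to 7.52 CPM in all libraries, was called in KD mice (log2 -1.14, SE 0.52, adjusted p 0.243) and in saline mice was 5.47 ± 1.87 on chow and 4.31 ± 2.67 CPM on HFD. That call was lost when any of 7 of the 8 libraries compared was left out.

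*Ugt2b35* (87000860 to 87013275) fell from 162 ± 28.5 to 108 ± 12.0 CPM in saline mice (log2 -0.57, SE 0.12, adjusted p 0.00866) and from 163 ± 11.49 to 78.3 ± 10.3 CPM in KD mice (log2 -1.07, SE 0.12, adjusted p 0.000322). *Ugt2b34* changed less, with -0.35 (SE 0.10, adjusted p 0.0333) and -0.45 (SE 0.10, adjusted p 0.0231). With library totals the saline values of *Ugt2b34* and *Ugt2b35* were -0.05 and -0.28 and neither was called. *Ugt2b36* (87065927 to 87092555) lies between *Ugt2b35* and *Ugt2b5* and varied least of the 46 genes, with a coefficient of variation of 6.62% over all libraries. It was 423 ± 26.2 CPM in Chow, 426 ± 28.96 in Chow/FGFR4 KD, 414 ± 19.1 in HFD and 382 ± 12.3 in HFD/FGFR4 KD. Its log2 fold change was -0.03 in saline mice (95% interval -0.18 to 0.12) and -0.16 in KD mice (adjusted p 0.244), a call lost in most alternatives. With library totals these values turned to 0.26 (adjusted p 0.118, called higher) and 0.02.

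*Ugt2a3*, a relative in the same stretch of chromosome 5, fell in saline mice from 222 ± 22.6 to 163 ± 36.9 CPM (log2 -0.47, SE 0.14, adjusted p 0.0475), and with library totals the value was -0.17 (adjusted p 0.396) and not called. In KD mice it was 184 ± 2.87 on chow and 182 ± 29.1 CPM on HFD, and the test of the difference between the 2 diet effects, which is the difference between KD effects, gave 0.44 (adjusted p 0.75). The 8 *Ugt1a* genes on chromosome 1 are spliced from their own first exons to a common set of later exons, which codes for the part that binds UDP-glucuronic acid, and they shared 53.0% to 84.2% of their words. None of the 8 was called in saline mice. In KD mice *Ugt1a6a* (log2 -0.26, adjusted p 0.156), *Ugt1a6b* (-0.22, adjusted p 0.216) and *Ugt1a9* (-1.12, adjusted p 0.181) fell, and each of these calls was lost when any of 5 of the 8 libraries was left out. The counts summed over the 8 genes changed by 0.04 and -0.02, not called. *Ugt1a1* was 483 ± 40.1 CPM in Chow and 495 ± 58.1 CPM in HFD.

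The products of the *Ugt3a* genes use other sugars than glucuronic acid. *Ugt3a1* was called higher in both comparisons, at 103 ± 16.8 CPM in Chow and 124 ± 19.3 in HFD (log2 0.27, SE 0.12, adjusted p 0.191), and 92.5 ± 5.39 in Chow/FGFR4 KD and 124 ± 12.5 in HFD/FGFR4 KD (log2 0.42, SE 0.13, adjusted p 0.0914). Its groups did not overlap in KD mice, and the saline call was lost without any of 6 of the 8 libraries. *Ugt3a2* was called in KD mice, from 317 ± 19.7 to 363 ± 29.9 CPM (log2 0.20, adjusted p 0.209), a call lost without any of 6 libraries. In saline mice it was 337 ± 18.4 on chow and 336 ± 27.97 CPM on HFD (log2 -0.01, adjusted p 0.96).

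**Figure D3:**
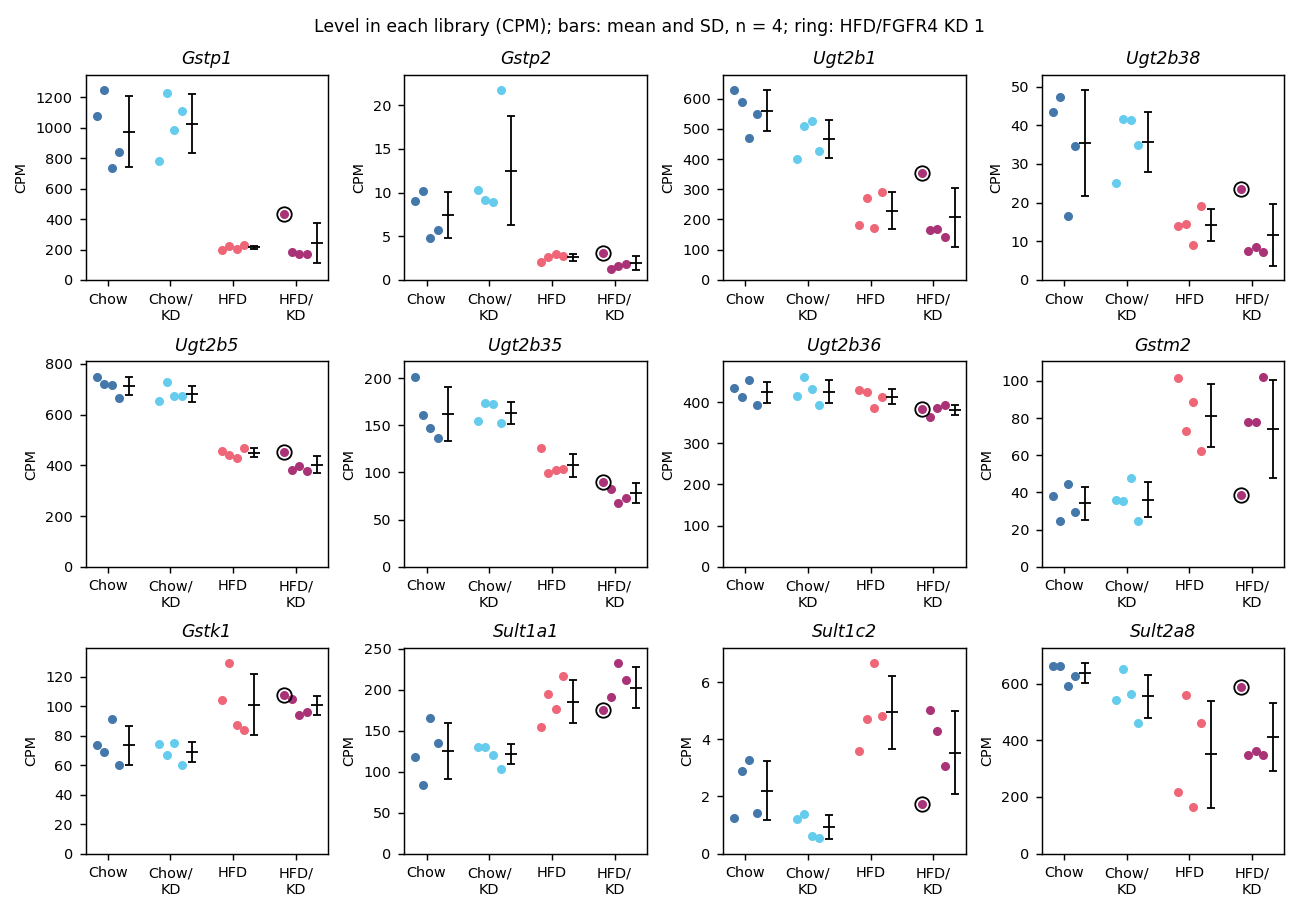
CPM of 12 of the genes in each library, in panels from *Gstp1* to *Sult2a8*, with the mean and SD of each group (n = 4) in black and a ring around HFD/FGFR4 KD 1. *Gstp1*, *Ugt2b1* and *Ugt2b5* separate the diets in all libraries, *Ugt2b36* stays between 364 and 462 CPM, and in *Sult2a8* HFD 1 and HFD 3 lie below HFD 2 and HFD 4.

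Among the mu class GST genes of chromosome 3, *Gstm2* rose. It was 38.1, 24.4, 44.45 and 29.5 CPM in Chow 1 to 4 and 101, 73.1, 88.6 and 62.3 CPM in HFD 1 to 4, without overlap. In KD mice it was 35.9, 35.5, 47.7 and 24.7 CPM on chow and 38.6, 78.0, 77.8 and 102 CPM on HFD, where HFD/FGFR4 KD 1 lay within the chow range. The log2 fold changes were 1.25 (SE 0.27, adjusted p 0.00947) and 0.995 (SE 0.27, adjusted p 0.0633), and the second was 1.28 without HFD/FGFR4 KD 1. *Gstm1*, the most abundant of the class, was not called, with 0.15 (95% interval -0.37 to 0.66) and -0.43 (-0.95 to 0.08). *Gstm4* and *Gstm5* were called lower in KD mice, with -0.60 (adjusted p 0.14) and -0.50 (adjusted p 0.206), and in saline mice *Gstm4* was 41.3 ± 8.30 and 40.5 ± 8.23 CPM. The call of *Gstm4* was lost with library totals and without Chow/FGFR4 KD 1 or Chow/FGFR4 KD 2. *Gstm5* was 4.80 ± 1.36 and 6.004 ± 0.628 CPM in saline mice (log2 0.38, adjusted p 0.24, not called), and its call in KD mice was lost with DESeq2, library totals, upper quartiles or no filter and without any of 4 libraries.

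Of the other GST classes, *Gstk1*, a mitochondrial and peroxisomal enzyme, rose from 73.4 ± 13.0 to 101 ± 20.7 CPM in saline mice (log2 0.45, SE 0.14, adjusted p 0.0504) and from 69.1 ± 6.74 to 101 ± 6.50 CPM in KD mice (log2 0.54, SE 0.14, adjusted p 0.0488). *Gsto1*, an omega class enzyme that reduces rather than conjugates its substrates, fell from 68.9 ± 6.39 to 50.4 ± 6.70 CPM in saline mice (log2 -0.45, SE 0.14, adjusted p 0.054) and by 0.32 in KD mice (adjusted p 0.231). With library totals both values were -0.15 and not called, and the call in KD mice was also lost with DESeq2 and without any of 4 libraries. *Gstt1* rose in saline mice (log2 0.36, adjusted p 0.107), a call lost without Chow 2, and 0.17 in KD mice was not called. *Gstt2* rose in KD mice (log2 0.63, adjusted p 0.164), and 0.26 in saline mice (adjusted p 0.49) was not called. The call of *Gstt2* was lost without Chow/FGFR4 KD 1, Chow/FGFR4 KD 4, HFD/FGFR4 KD 3 or HFD/FGFR4 KD 4. *Gsta3* did not pass in either comparison, with -0.05 (95% interval -0.33 to 0.23) and 0.10 (-0.18 to 0.38).

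Among the sulfotransferases, *Sult1a1*, which sulfates phenols, rose on HFD. It was 118, 83.2, 166 and 134 CPM in Chow 1 to 4, 154, 194, 176 and 216 CPM in HFD 1 to 4, 129.7, 130.2, 121 and 104 CPM in Chow/FGFR4 KD 1 to 4 and 176, 191, 232 and 212 CPM in HFD/FGFR4 KD 1 to 4. Only Chow 3 reached into the HFD range. The log2 fold changes were 0.59 (SE 0.16, adjusted p 0.0342) and 0.74 (SE 0.16, adjusted p 0.0282). *Sult1c2* was far lower, with 2.0 to 44.0 counts per library, and rose from 2.20 ± 1.02 to 4.94 ± 1.27 CPM (log2 1.20, SE 0.37, adjusted p 0.052) and from 0.933 ± 0.412 to 3.53 ± 1.45 CPM (log2 1.73, SE 0.54, adjusted p 0.0984). *Sult1b1* rose in KD mice (log2 0.64, SE 0.23, adjusted p 0.136), from 12.7 ± 2.76 to 19.7 ± 3.21 CPM, and was 15.5 ± 2.48 and 19.8 ± 5.58 CPM in saline mice. *Sult1d1* was not called, with 0.18 (95% interval -0.24 to 0.59) and 0.35 (-0.07 to 0.77).

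*Sult2a8* (chromosome 7, 14410686 to 14446769), a hepatic bile acid sulfotransferase of the mouse, fell in saline mice. It was 663, 663, 589.6 and 626 CPM in Chow 1 to 4 and 216, 558, 165 and 461 CPM in HFD 1 to 4, without overlap (log2 -1.03, SE 0.29, adjusted p 0.0356). In KD mice it was 543, 649.8, 563 and 462 CPM on chow and 589, 349, 361 and 346 CPM on HFD, and the log2 fold change of -0.46 (SE 0.29, adjusted p 0.409) was not called. Without HFD/FGFR4 KD 1 it was -0.64 (adjusted p 0.221) and called.

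The HFD group itself was split in several genes. HFD 1 and HFD 3 had 28.7 and 34.8 CPM of *Gsta1*, against 5.99 and 6.09 in HFD 2 and HFD 4, and 113 and 119 CPM of *Gstm3*, against 28.7 and 44.1. They had 1348 and 1323 CPM of *Gstm1*, against 685 and 790.3. In *Sult5a1* the order was the reverse, with 2.94 and 1.36 CPM in HFD 1 and HFD 3 and 15.1 and 13.4 CPM in HFD 2 and HFD 4. The same libraries differed on the first principal component, with 28.1 and 32.5 against 7.93 and 10.2. *Gsta1*, *Gstm3* and *Sult5a1* were named after their values were seen, 92.9% of the words of *Gsta1* occur in other genes, and none of the 4 genes was called for diet in saline mice.

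**Figure D4:**
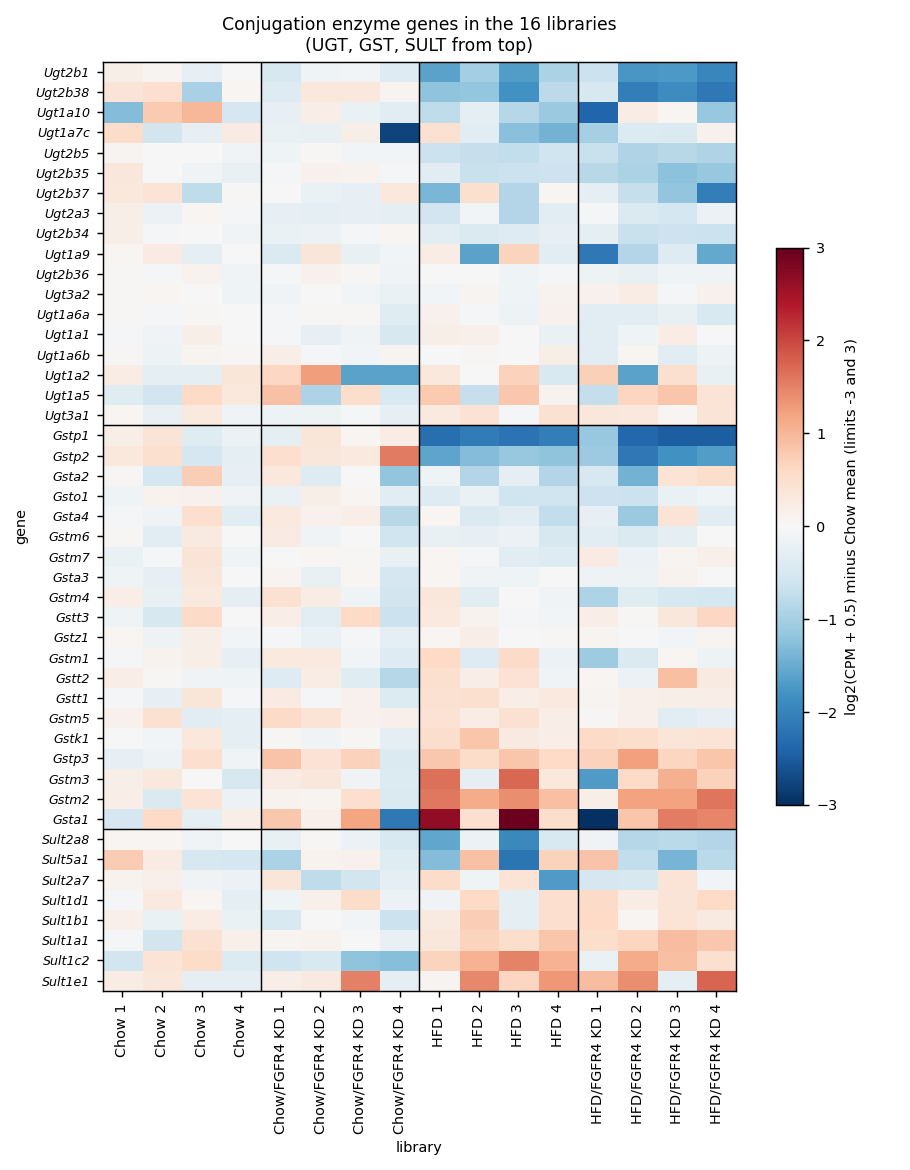
Level of each of the 46 genes (rows, by family and by diet effect in saline mice) in each of the 16 libraries (columns), as log2(CPM + 0.5) minus the mean of the Chow libraries, on a colour scale from -3 (blue) to 3 (red). The 8 HFD columns are blue for *Ugt2b1*, *Ugt2b5*, *Gstp1* and *Gstp2*, HFD 1 and HFD 3 are red for *Gsta1* and *Gstm3*, and HFD/FGFR4 KD 1 is paler than its group for *Ugt2b38* and *Gstp1*.

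The main question of the study was what FGFR4 KD does in mice on HFD. Here 2 of the 46 genes (4.35%) were called, both lower, against 2.77% of all genes, and 0 reached the stricter level of 0.05. Without regard to the adjustment 8 of the 46 and 1362 of all 12985 genes had p under 0.05, and the medians were -0.06 for the 46 genes and 0.00 for all. *Ugt2b35* was 126, 99.6, 102 and 103 CPM in HFD 1 to 4 and 90.2, 83.0, 67.3 and 72.6 CPM in HFD/FGFR4 KD 1 to 4 (log2 -0.47, SE 0.12, adjusted p 0.144). *Ugt1a6a*, which glucuronidates phenols, was 162, 143, 133 and 159 CPM against 118, 116, 125 and 106 CPM (log2 -0.36, SE 0.09, adjusted p 0.15). In both genes the 4 KD libraries lay below the 4 HFD libraries, which was also so for *Gstm4* and *Gstm5*, and groups did not overlap in 6.10% of all genes.

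Both calls depended on single libraries. *Ugt2b35* lost its call without HFD 1, HFD 3, HFD/FGFR4 KD 3 or HFD/FGFR4 KD 4, and *Ugt1a6a* without HFD 1, HFD 4, HFD/FGFR4 KD 1 or HFD/FGFR4 KD 4. The count was 0 without HFD 1 or HFD/FGFR4 KD 4, 5 without HFD 2, and 1 without HFD 3, HFD 4, HFD/FGFR4 KD 1 or HFD/FGFR4 KD 3. *Ugt1a6a* shares 53.0% of its words with other genes, and the summed *Ugt1a* counts changed by -0.19 (adjusted p 0.565). *Gstm4* (log2 -0.56, adjusted p 0.339), *Gstm1* (-0.55, adjusted p 0.442) and *Gstm5* (-0.48, adjusted p 0.394) were not called. *Gstp1* was 0.05 (95% interval -0.46 to 0.57) and *Ugt2b5* -0.16 (-0.31 to -0.01, adjusted p 0.456). Without HFD/FGFR4 KD 1, *Gstp1* turned to -0.275, *Ugt2b1* went from -0.21 to -0.50 and *Gstm1* from -0.55 to -0.32, none of them called.

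On chow, KD called none of the 46 genes by limma-voom, against 0.00770% of all genes, which was *Fgfr4* alone. With p under 0.05 before adjustment there was 1 gene, *Gstp2* (log2 0.70, SE 0.28, adjusted p 0.989), and edgeR and DESeq2 also called none, each with 2 genes at p under 0.05. *Gstp2* was 8.89 to 10.3 CPM in 3 KD libraries and 21.8 CPM in Chow/FGFR4 KD 4, the library with high *Saa2*. Leaving out single libraries gave log2 fold changes of 0.43 to 0.85. The difference between the KD effects on HFD and on chow was called for none of the 46 genes in limma-voom, against 0.0308% of all genes, and 3 of the 46 and 851 of all 12985 genes had p under 0.05. *Gstm5* had the lowest p, with -0.87 (SE 0.29, adjusted p 0.609), followed by *Ugt2b35* with -0.49 (adjusted p 0.645), which DESeq2 called with -0.48 (adjusted p 0.25), while edgeR called none. For *Gstp1* the difference was -0.03 (95% interval -0.76 to 0.70), and for *Ugt2b5* -0.09 (-0.31 to 0.13).

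**Figure D5:**
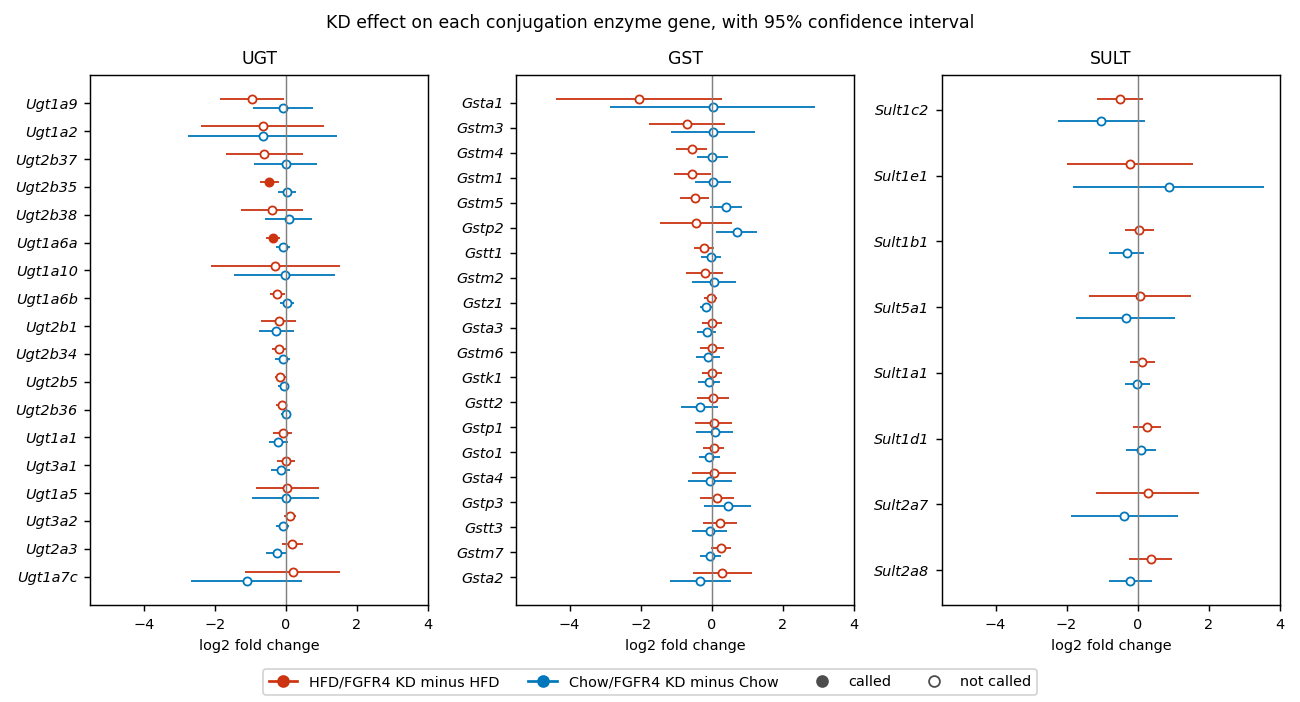
Log2 fold change of each gene with KD on HFD (HFD/FGFR4 KD minus HFD, red) and with KD on chow (Chow/FGFR4 KD minus Chow, blue), in panels for UGT, GST and SULT genes. Lines are 95% confidence intervals from limma-voom, and the filled points are the 2 calls, *Ugt2b35* and *Ugt1a6a* on HFD, at -0.47 and -0.36.

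Genes that supply the conjugation reactions were taken from lists, whose counts stand beside 25.1% of all genes called in saline mice, 18.5% in KD mice and 2.77% with KD on HFD. Of 6 tested genes for glucuronic acid supply and release, *Ugp2*, which makes UDP-glucose, rose on HFD in saline mice from 225 ± 16.2 to 379 ± 19.5 CPM (log2 0.75, adjusted p 0.00114) and was lower with KD on HFD, at 256 ± 33.9 CPM (-0.57, adjusted p 0.0465), and these comparisons share the HFD libraries. *Ugdh*, which oxidises UDP-glucose to UDP-glucuronic acid, fell on HFD in KD mice (log2 -0.54, adjusted p 0.0457). Of 11 glutathione supply genes, 2 rose and 1 fell in each diet comparison. *Ggct*, an enzyme of glutathione breakdown, rose by 0.71 in saline and by 1.15 in KD mice on the log2 scale, and *Gsr*, which reduces oxidised glutathione, fell by 0.31 and 0.27. Of 11 genes for the sulfate donor, for desulfation and for protein tyrosine sulfation, 2 rose and 2 fell in saline mice. In KD mice 3 rose and 3 fell. The 2 that fell in saline mice were the protein-tyrosine sulfotransferases *Tpst1* (-0.70) and *Tpst2* (-0.44). Genes higher in both were the arylsulfatases *Arsa* (0.84 and 0.65) and *Arsb* (0.30 and 0.35), and their substrates were not examined. The sulfate transporter *Slc26a1* rose in KD mice (0.52) and was not called in saline mice (0.06).

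Lists of genes under related control were read beside the conjugation genes, with the same shares of all genes (25.1%, 18.5% and 2.77%) for comparison. Of 10 targets of the receptors CAR and PXR outside the 3 families, 2 were higher and 6 lower in saline mice (median log2 -1.09) and 0 higher and 5 lower in KD mice (median -0.65), led by the carboxylesterase *Ces2a* (-2.44 and -1.80) and the cytochrome P450 *Cyp3a11* (-2.97 and -2.17). With KD on HFD, *Ces2a* (0.57) and *Cyp2c29* (0.69) were higher and *Aldh1a1* (-0.45) lower, and again the HFD libraries are shared with the diet comparison. Of 10 tested NRF2 targets 2 were higher and 2 lower in saline mice, and 1 higher and 3 lower in KD mice. Of 16 tested regulators 3 rose and 1 fell in each diet comparison, and *Nr1i3*, which encodes CAR, and *Ppara* rose in both, by 0.61 and 0.88 for *Nr1i3*. Of 13 male-biased liver genes outside the families 1 was higher and 10 lower in saline mice (median -2.09) and 0 higher and 9 lower in KD mice (median -0.98). Of 11 tested female-biased genes 5 rose and 2 fell in saline mice (median 1.79) and 2 rose and 1 fell in KD mice (median 1.96). The part of these changes in those of *Gstp1* and the *Ugt2b* genes was not tested. The male-biased genes summed to 13750 to 20250 CPM in Chow/FGFR4 KD and 4412 to 14620 CPM in HFD/FGFR4 KD. In HFD/FGFR4 KD 1 *Serpina1e* was 6786 CPM, against 632 to 1815 CPM in the rest of its group. The female-biased *Cyp2b9* was 0.217 CPM there, against 5.41 to 56.1 CPM. Another male-biased gene, *Cyp2d9*, at 893 CPM, lay within the 458 to 959 CPM of the rest. The lists were not read without this library.

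Markers of cell types also moved with the diet. Their counts stand beside 25.1% of all genes called in saline mice, 18.5% in KD mice and 2.77% with KD on HFD. In saline mice 7 of 10 macrophage markers rose, and their summed level was 65.9 to 70.1 CPM in Chow and 114 to 209.8 CPM in HFD. In KD mice 1 of the 10 rose, with sums of 83.2 to 114 CPM on chow and 99.0 to 179 CPM on HFD. Of 9 tested stellate and fibroblast markers 5 rose in saline mice and 0 in KD mice (sums of 114 to 154, 180.0 to 327, 92.1 to 144 and 127 to 211 CPM in Chow, HFD, Chow/FGFR4 KD and HFD/FGFR4 KD). Endothelial markers gave 4 of 8 higher in saline mice and 1 of 8 in KD mice, and 1 of 5 tested cholangiocyte markers, *Sox9*, fell in each. From the lymphocyte list only *Ptprc* was tested, and it rose in saline mice. Its other genes include *Cd3e*, *Cd79a* and *Gzma*, which had at most 3 counts in every library, so the list does not show a change in lymphocytes. Of the adipocyte markers *Lep*, *Plin1*, *Retn* and *Slc36a2* had at most 3 counts in every library, and the 2 tested genes rose in saline mice. Of 9 hepatocyte markers 5 fell in saline mice (median log2 -0.27), and in KD mice 1 rose and 2 fell. With KD on HFD both tested genes of the adipocyte list were lower, *Cidec* (-2.29) and *Cfd* (-1.57). The sums over the list were 36.5 to 95.2 CPM in HFD and 9.32 to 31.3 CPM in HFD/FGFR4 KD. With 4 of the 7 list genes at no more than 3 counts, these 2 genes do not by themselves show a change in adipocytes. Of the hepatocyte markers *Serpina1a* (0.35) was then higher and *Ttr* (-0.51) lower. Fewer cells of a type and less RNA per cell cannot be told apart in whole liver, and the part of the cell makeup in the results was not tested.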

How the data were processed

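The deposited table holds estimated counts (expected counts that need not be whole) for 52143 genes in 16 liver libraries, 4 per group. The authors made them by kallisto pseudoalignment and tximport summing of transcripts, and the submitters' processing notes also name fastp and GRCm38. Versions and the transcriptome release are not given in the sources used here. Total counts of 3445949 to 5976448 set the precision. The extract protocol names a poly(A) library kit, while the methods of the study name a targeted assay.

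TMM factors (edgeR 4.0.16) scaled the CPM values, and the counts were analysed in limma-voom (limma 3.58.1, R 4.3.3) with a mean for each group over all 16 libraries. The filter was 1 CPM in 4 libraries. The KD effect was tested on each diet, as was the difference between those effects, and the HFD effect was tested in saline and in KD mice, with two-sided tests adjusted over all genes. Each library is from a mouse of its own, as the study describes its columns. No library repeats another of its own group (chi-square per degree of freedom of at least 7.59), and libraries of different groups were not compared in this way. Shared sequence is the percentage of 31-base words found in other genes (GENCODE M21). Genes linked by 20% of words were also summed, an alternative added after seeing the data. Promoters are from RefSeq, matched by symbol for 41 of 46 genes. Genes named are those called in any comparison, the 3 most abundant of each family, *Ugt2b5*, *Gstm1*, *Gstp1*, the lowest p of each comparison and genes of the lists. The members and lists were chosen with earlier results of these data known. The fits were tested on simulated counts. Alternatives were library totals, upper quartiles, removal of Lars2 and of Gm42418, which took up to 22.7% of counts, other filters, DESeq2 1.42.0 on rounded counts, the quasi-likelihood test of edgeR, a replicate block, fits of only the groups compared, quality weights, an adjusted p under 0.05 and leaving out each library. Python 3.11.15 was used for the rest.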

Additional observations from a re-analysis of the deposited data

Results flagged for a closer look

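In 184 groups of 4 values (46 genes in 4 groups), 10 had a library whose gap to the nearest of the others exceeded the 95% critical value of Dixon's test, where chance gives about 1 in 20, or 9.2. Of these, 6 were in HFD/FGFR4 KD 1, the library that also stood apart on the first principal component. There *Gstp1* was 437 CPM against 171 to 185 in the other 3 libraries, *Ugt2b1* 354 against 142 to 169, *Ugt2b34* 315 against 239 to 246, *Ugt2b38* 23.5 against 7.11 to 8.55, *Sult2a8* 589 against 346 to 361, and *Sult5a1* 14.9 against 2.75 to 4.63 CPM. All 6 values lay above those of the other 3 libraries.

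In Chow/FGFR4 KD 4, which had high *Saa2*, *Gstp2* was 21.8 CPM against 8.89 to 10.3, and *Ugt1a6a* was 114 CPM against 144 to 149.9. In Chow 3 *Gstp3* was 4.18 CPM against 2.28 to 2.60, and in HFD 1 *Ugt2b35* was 126 CPM against 99.6 to 103.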

How the results depend on the processing

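With KD on HFD, the 2 genes called became 1 with library totals and 0 at an adjusted p under 0.05, and leaving out single libraries gave 0 to 5. On HFD in saline mice the 17 became 11 at an adjusted p under 0.05, with 16 to 19 when a library was left out. On HFD in KD mice the 23 became 9 at an adjusted p under 0.05, with 14 to 21 when a library was left out. For the difference between KD effects the 0 became 1 with DESeq2. For KD on chow the count was 0 in every alternative. The other counts stayed within 1.5 times. Over the 42 calls of single genes the single change of direction was *Ugt2b36* on HFD in KD mice, 0.0179 with library totals, and the cause was not tested. Library totals ended 11 of the 42 calls other than this, and no filter ended 7, upper quartiles 6, only the groups compared 5, DESeq2 3, the quality weights 2, and edgeR, the 12-library filter and the removal of Gm42418 and Lars2 1 each. The numbers of the libraries do not pair them: same-numbered libraries had correlations from -0.233 to 0.196, and with the replicate block 17 genes were called for HFD in saline mice, 22 for HFD in KD mice, 2 for KD on HFD and 0 for the other comparisons, and 2 calls were lost. The fit of only the groups compared was not run for the difference, which uses all groups. Genes at a few counts, such as *Sult1c2*, are limited by depth.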

Other observations

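Other conjugation enzymes, which join acetyl, methyl or amino acid groups, and the pumps that export conjugates were read from lists. The enzyme list also held the acyl-CoA synthetases *Acsm1*, *Acsm3* and *Acsm5* and the epoxide hydrolases *Ephx1* and *Ephx2*, which do not join these groups. The counts of both lists and of the further lists below stand beside 25.1% of all genes called in saline mice, 18.5% in KD mice and 2.77% with KD on HFD. Of the 17 genes of the enzyme list 2 were higher and 6 lower on HFD in saline mice and 2 higher and 2 lower in KD mice. *Nat8*, which acetylates cysteine conjugates in the last step from glutathione conjugates to mercapturic acids, was 15.96 ± 2.43 CPM in Chow, 4.81 ± 2.005 in HFD and 11.2 ± 3.51 in HFD/FGFR4 KD (n = 4 each). It fell by 1.81 on the log2 scale on HFD in saline mice (limma-voom adjusted p 0.00105) and rose by 1.23 with KD on HFD (adjusted p 0.0853), and these comparisons share the HFD libraries. *Acsm3*, an acyl-CoA synthetase, was 88.0 ± 11.9 CPM in Chow, 109 ± 5.92 in HFD and 77.8 ± 5.84 in HFD/FGFR4 KD, called higher on HFD (log2 0.32, adjusted p 0.0773) and lower with KD on HFD (-0.50, adjusted p 0.072).

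Of 7 export pumps 0 were called on HFD in saline mice, and in KD mice 1 was higher and 1 lower. With KD on HFD *Abcc3*, which exports glucuronides to blood, was called lower, at 174 ± 40.4 against 287 ± 58.8 CPM (log2 -0.73, adjusted p 0.222), as was *Abcg2*, which exports sulfates (-0.31, adjusted p 0.24). HFD/FGFR4 KD 1 had the lowest *Abcc3* of its group, 114 CPM. Of 6 tested genes listed as glutathione transferases or related proteins outside the 3 families, 2 were higher and 1 lower in saline mice. The higher ones were *Mgst3* (log2 1.05) and *Ptges* (1.63), and the lower one was *Eef1g* (-0.43), a subunit of a translation elongation factor. The microsomal enzyme *Mgst1* stood at 2314 ± 221 CPM in Chow and 2237 ± 116 in HFD, not called. Of 14 clock genes 7 rose and 5 fell on HFD in saline mice and 8 rose and 5 fell in KD mice, and the hour at which livers were taken is not given in the sources used here.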
